A study of Mus musculus with 4 samples.

Results

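The genes described here are the nuclear genes of oxidative phosphorylation, measured by RNA-seq in mouse zygotes, single-cell embryos just after fertilisation. Members were taken by gene symbol from the deposited count table: the Nduf genes of complex I, Sdha to Sdhd of complex II, the Uqcr genes and Cyc1 of complex III, the Cox4 to Cox8 genes of complex IV and the Atp5 genes of ATP synthase. Names that contain "-ps" were left out. This gave 98 of 55291 features, of which 94 are protein-coding and 4 (Cox6c2, Ndufs6b, Ndufa11b and Ndufb4c) are processed pseudogenes that carry a matching name. Of the protein-coding members, 37.2% (35 of 94) reached 10 CPM (counts scaled to a common library size) in at least 1 library, against 40.2% of all 21789 protein-coding features.

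There were 4 samples, 1 per group, titled RNA-3.3-MO-con, RNA-3.3-MO-inject, RNA-3.3S31A-con and RNA-3.3S31A-inject, called the control and the injected sample of the MO experiment (MO control, MO injected) and of the S31A experiment (S31A control, S31A injected) below. The series concerns histone H3.3 of maternal origin in the reprogramming of the parental genomes. The labels do not spell out MO or S31A, and what the control zygotes received, the strain and age of the females, and the number of zygotes per sample are not given in the sources used here. Each sample has 2 count columns, called libraries 1 and 2. Nothing in the sources says that they are separate pools of zygotes, so p-values computed over them measure the spread between these libraries, which may be technical.

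Libraries held between 5661621 and 13233371 counts and detected 11372 to 15156 features, and 66 to 82 of the 98 members had at least 1 count. Members took 0.132% to 0.186% of the counts. All 14 oocyte and zygote markers were detected in every library, summing to 5975 to 14140 CPM. Of the 11 cumulus and granulosa markers, 6 (Amh, Foxl2, Fshr, Has2, Ptx3 and Tnfaip6) were at 0 everywhere and the summed level was 46.7 to 165 CPM. In each library 1 to 3 were detected, and their level was not constant. Of 2 at 10 CPM or more in either control, 1 was at least 2-fold higher in S31A control, against 13.6% of all features. Of 2 in the S31A experiment, 1 was at least 2-fold lower in S31A injected, against 16.1%. Libraries overlapped in both cases. Of 10 sperm markers, 6 were at 0 everywhere, 2 to 3 were detected in each library and the sum was 23.7 to 65.5 CPM. Of 6 blood markers, 3 were at 0 everywhere and the sum was 0 to 2.39 CPM. H3f3a and H3f3b, which encode H3.3, were at 8 and 2.3 CPM in MO injected library 1 and at 52.4 and 10.5 CPM in library 2. In the other 6 libraries H3f3a was at 462 to 657 CPM and H3f3b at 1453 to 2749 CPM.

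Oxidative phosphorylation passes electrons from NADH through complex I, or from succinate through complex II, to ubiquinone, then through complex III and cytochrome c to complex IV, where oxygen is reduced. Complexes I, III and IV move protons across the inner mitochondrial membrane, and complex V, ATP synthase, uses the gradient to make ATP. Most subunits are encoded in the nucleus, and the rest in the mitochondrial genome. The mouse zygote depends on mitochondria inherited from the oocyte and on pyruvate as its fuel, and many nuclear OXPHOS genes have processed pseudogenes, intronless copies of a spliced mRNA inserted elsewhere in the genome.

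Those copies carry a large part of the signal of this gene family in the table, so their sequences are shown first. Cox6c encodes a small nuclear subunit of complex IV and lies at chr15:35925886-35938246 (mm10). Cox6c2, at chr12:56373593-56373823, is a processed pseudogene made of a single exon of 231 bases that covers the whole coding sequence. Both are given below from the start codon to the stop codon, in the sense direction, with the 7 bases that differ in capitals. In Cox6c the only junction between coding exons follows base 117, and in Cox6c2 there is none.
Cox6c: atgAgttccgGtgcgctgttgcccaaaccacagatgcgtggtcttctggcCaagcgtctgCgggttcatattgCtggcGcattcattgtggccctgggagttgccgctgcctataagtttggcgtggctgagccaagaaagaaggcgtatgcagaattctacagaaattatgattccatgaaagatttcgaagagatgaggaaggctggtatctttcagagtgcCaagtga
Cox6c2: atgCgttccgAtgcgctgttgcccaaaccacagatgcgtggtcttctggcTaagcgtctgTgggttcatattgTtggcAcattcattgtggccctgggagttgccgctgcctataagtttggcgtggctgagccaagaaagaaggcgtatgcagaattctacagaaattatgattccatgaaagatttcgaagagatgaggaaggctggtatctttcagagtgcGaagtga

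Over the 8 libraries the spliced gene Cox6c had 66 counts and its 1-exon copy Cox6c2 had 4895. Cox6c2 was at 42.8 and 58.4 CPM in MO control, 62.2 and 21.4 in MO injected, 78.8 and 73.9 in S31A control, and 80.7 and 54.4 in S31A injected. Cox6c itself was between 0 and 2.78 CPM in those libraries. The lowest value of the copy was above the highest value of the gene.

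A second pair shows the same order of counts with a gene of 4 coding exons. Cox5b, another nuclear subunit of complex IV, lies at chr1:36691449-36693681, and its copy Cox5b-ps at chr13:21501029-21501418. The copy is 99.2% identical over the 390 bases of coding sequence, with 3 differences. The first 200 coding bases are printed because the first 2 of the 3 exon junctions of Cox5b, after bases 103 and 177, fall in them. A single base in this stretch, in capitals, tells the gene from the copy.
Cox5b: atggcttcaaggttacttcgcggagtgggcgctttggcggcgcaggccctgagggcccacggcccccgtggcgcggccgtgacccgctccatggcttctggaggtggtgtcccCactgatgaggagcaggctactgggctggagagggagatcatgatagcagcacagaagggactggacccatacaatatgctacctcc
Cox5b-ps: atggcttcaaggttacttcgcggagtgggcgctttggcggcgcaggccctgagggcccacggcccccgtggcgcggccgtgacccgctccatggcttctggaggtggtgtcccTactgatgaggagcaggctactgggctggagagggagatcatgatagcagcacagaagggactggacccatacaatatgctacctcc

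Cox5b-ps had 5131 counts over the 8 libraries and Cox5b had 520. The copy was at 50.2 and 42.6 CPM in MO control, 30.1 and 34.7 in MO injected, 109 and 93.3 in S31A control, and 79.9 and 57.6 in S31A injected. Cox5b was at 2.60 to 11.2 CPM.

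Across the family, 44 of the 94 protein-coding members had at least 1 intronless copy, counted as a processed pseudogene or a protein-coding feature of 1 exon that matched the coding sequence at 85% identity or more over 80% or more of its length. There were 102 such copies (100 pseudogenes and 2 coding features), 97 annotated with 1 exon and 5 with 2, the latter holding 139 counts in all. They had a median identity of 93.2%, and 60 of them had counts. Of the 102, 98 lie outside the members and the other 4 are the pseudogenes that the symbol rule took in. For 26 of the 44 members the copies together held more counts than the gene, for 25 at least 2 times as many, and for 12 at least 10 times as many. The copies outside the members held 61108 counts, against 123258 for all members, and made up 27.1% to 41.7% of members and copies together in single libraries.

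The largest of these features was Gm11633 (chr11:97968792-97969235), 93.0% identical to the coding sequence of Cox5a, another nuclear subunit of complex IV. It held 16242 counts and Cox5a (chr9:57521274-57532426) held 81. Gm11633 was at 246 and 176 CPM in MO control, 122 and 222 in MO injected, 219 and 332 in S31A control, and 97.3 and 215 in S31A injected. It lies within Plxdc1, which had 0 counts in every library. Gm4459 (chr7:139659688-139660155), 99.8% identical to Ndufab1, held 8571 counts against 169 for Ndufab1, the acyl carrier protein that is also a subunit of complex I. Gm4459 overlaps Cfap46, which had 11 counts.

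Other copies with many counts belonged to ATP synthase and complex I. Atp5pb-ps held 6652 counts against 1470 for Atp5pb, the b subunit of the ATP synthase stalk. Gm10250 held 2570 against 13 for Atp5h, the d subunit. Gm10221, with no difference over the 99.0% of the coding sequence of Atp5l that it covers, held 2110 against 16 for Atp5l, the g subunit. In complex I, Gm13186 held 3034 counts against 20 for Ndufb2, an accessory subunit. Gm12251 held 1516 against 7 for Ndufs3, a core subunit. Copies were not always the larger: for Ndufa4, a subunit now placed in complex IV, they held 996 counts against 1335 for the gene, and for Cox6a1 they held 569 against 1098. Whether a read came from the gene or from the copy cannot be told apart in summed counts, and the submitters' setting for reads with several matches is not given in the sources used here. Of the copies outside the members, 33 overlap another feature, and those that overlap none held 31939 counts. Without Gm11633 and Gm4459 the copies held 36295.

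**Figure D1:**
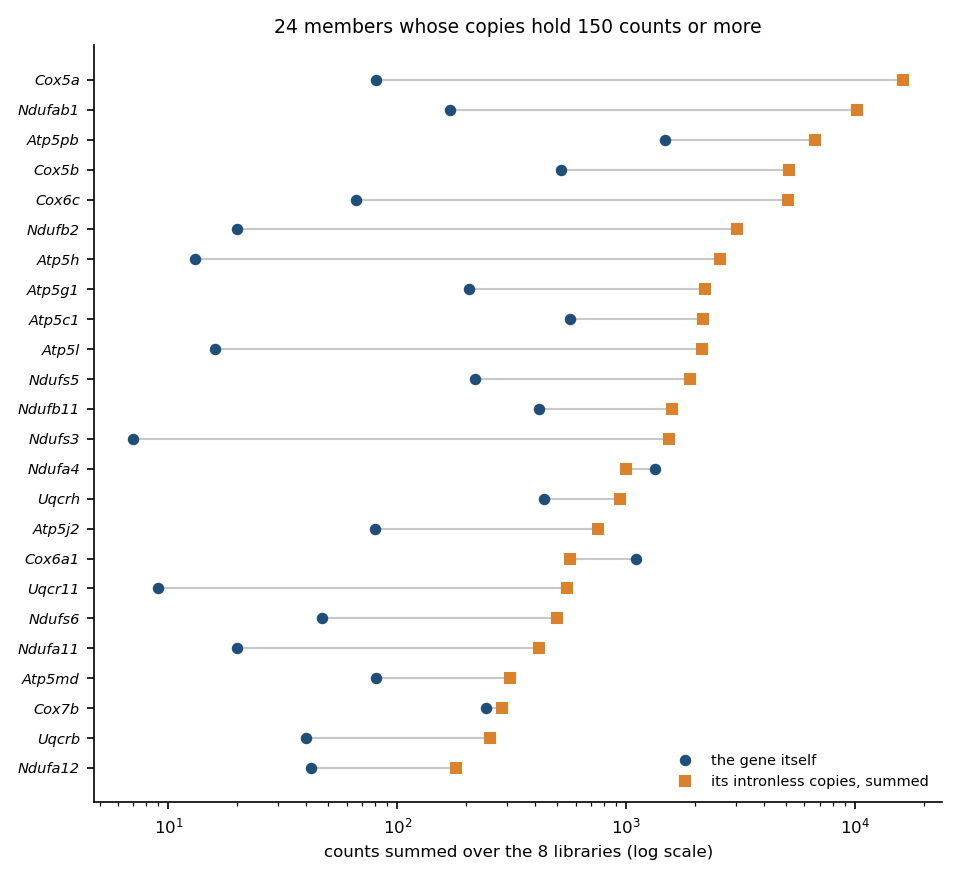
Counts summed over the 8 libraries, on a log axis, for the gene itself (circles) and its intronless copies together (squares), for the 24 members whose copies held 150 counts or more. The square lies to the right of the circle for most genes, by the widest margins for Ndufs3, Atp5h, Cox5a, Ndufb2 and Atp5l, and to the left for Ndufa4 and Cox6a1.

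Levels of different genes are given per length, as CPM per kb of the deposited feature length, and as the median over the 8 libraries. By this measure the 8 highest members were Cox6c2 at 261, Cox8a at 198, Atp5a1 at 59.1, Ndufaf4 at 46.7, Sdha at 46.3, Cox7a2l at 43.8, Atp5b at 37.0 and Ndufb6 at 23.3 CPM per kb. Together these 8 held 63.9% of the members' summed CPM. At the other end, 7 members (Ndufaf1, Ndufaf6, Ndufc1, Cox7a1, Cox7b2, Cox8b and Cox8c) had 0 counts in all 8 libraries, which at a floor of 3 counts allows up to 0.23 to 0.493 CPM depending on the library. In all, 46 members were detected in every library, 38 reached 10 CPM in at least 1, 13 reached it in all 8, and 60 never did.

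**Figure D2:**
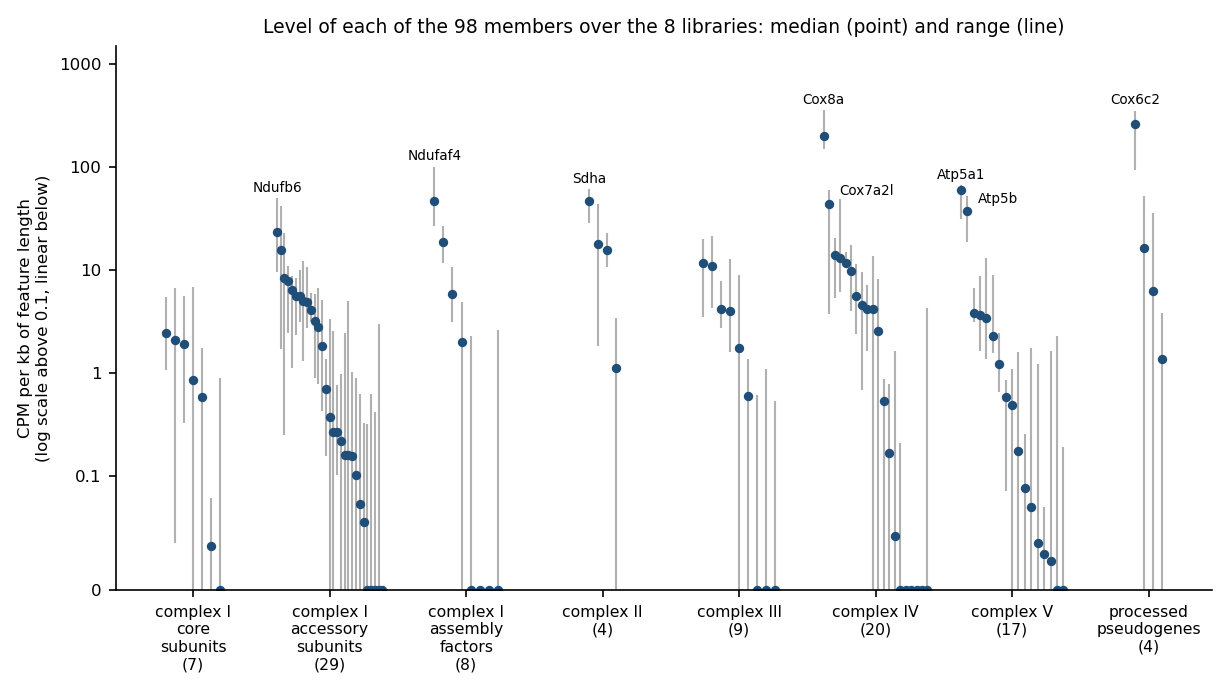
Level of each of the 98 members in CPM per kb of feature length, by complex, with the number of members in brackets; points are medians over the 8 libraries, lines the lowest and highest library, and the axis is logarithmic above 0.1 and linear below. All groups but the complex I core subunits hold members above 10 CPM per kb, and all but complex II and the pseudogenes hold members at or near 0.

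Complex I, the entry point for NADH, ranged from the assembly factor Ndufaf4, 4 in rank among the 98 members by CPM per kb, to members with no counts. None of its 7 nuclear core subunits, which carry the NADH site and the iron-sulphur clusters, reached 10 CPM in all libraries, and 4 reached it in any. Ndufs1, the largest of them, was at 15.8 and 13.8 CPM in MO control, 15.0 and 8.08 in MO injected, 2.62 and 45.2 in S31A control, and 27.5 and 19.1 in S31A injected. The 2 S31A control libraries enclosed all the others. Ndufs3, Ndufs7 and Ndufs8, also core subunits, stayed at 2.99 CPM or less as genes alone. Ndufs3 summed with its intronless copies was at 7.38 to 51.4 CPM. Of 29 accessory subunits, which surround the core, 7 reached 10 CPM and only Ndufb5 did so in all 8 libraries, at 11.7 to 41.2 CPM. With copies summed, 14 accessory subunits reached 10 CPM, 4 of them in all 8 libraries.

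The proteins that assemble complex I without staying in it were counted in the same way, first as genes alone. Of 8 such members, Ndufaf2, Ndufaf4 and Ndufaf7 reached 10 CPM in all libraries, while Ndufaf1 and Ndufaf6 were at 0 in all. With copies summed, 3 of 8 assembly factors, 4 of 29 accessory subunits and 0 of 7 core subunits reached 10 CPM in all libraries. Of all 94 protein-coding members with copies summed, 20 did so. The share of all features is not given here, and a difference between these groups was not tested. Ndufaf4 (chr4:24898083-24905001) was at 254 and 391 CPM in MO control, 148 and 263 in MO injected, 187 and 140 in S31A control, and 177 and 104 in S31A injected. Both S31A control libraries were below both MO control libraries, and injected and control libraries overlapped in each experiment.

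In complex II, which is also an enzyme of the TCA cycle, the catalytic subunit Sdha and the membrane anchor Sdhc reached 10 CPM in all libraries and the anchor Sdhd in 7. Sdhb, the iron-sulphur subunit, never reached it and was at 0 in 3 libraries. In complex III, Uqcrc2, a core subunit without a redox centre, reached 10 CPM in all 8 libraries and the Rieske iron-sulphur protein Uqcrfs1 in 6. Cytochrome c1 (Cyc1) was at 1.32 CPM or less, and Uqcrc1, the partner of Uqcrc2, was at 0 in 7 libraries and 4.496 CPM in the other.

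Complex IV has subunits in alternative forms, some found mainly in heart, muscle, lung or testis. Cox8a (chr19:7215153-7217616), the widely expressed form of subunit VIII, was at 143 and 97.7 CPM in MO control, 220 and 138 in MO injected, 149 and 107 in S31A control, and 104 and 92.5 in S31A injected, while Cox8b and Cox8c were at 0 throughout. Cox7a2 was at 5.02 to 19.0 CPM and Cox7a1 at 0. Cox4i1 was at 0 to 21.2 CPM, and Cox4i2 had a single count in all.

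The restricted forms were not absent in every pair. Cox6b2, known from testis, was at 2.63 to 12.7 CPM, against 2.84 to 12.2 CPM for Cox6b1. Per length Cox6b2 was the lower of the pair, at a median of 5.565 CPM per kb against 9.786 for Cox6b1. Cox6a2, known from heart and muscle, was at 0.460 to 6.41 CPM, against 4.24 to 34.0 CPM for Cox6a1. Per length these were at medians of 4.55 and 12.98 CPM per kb. Cox7b2 was at 0 in all libraries and Cox7b at 0 to 9.93 CPM. Ndufa4 was at 14.7 to 20.4 CPM and its relative Ndufa4l2 had counts in a single library, at 4.67 CPM.

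Ndufa4 (chr6:11900292-11907497) varied little: it was at 17.5 and 20.4 CPM in MO control, 16.2 and 16.1 in MO injected, 15.8 and 14.7 in S31A control, and 17.9 and 15.5 in S31A injected. Cox7a2l (chr17:83501918-83517330), which helps complexes III and IV join into supercomplexes, varied far more. Cox7a2l was at 79.6 and 87.1 CPM in MO control, 20.99 and 88.19 in MO injected, 48.8 and 61.9 in S31A control, and 5.46 and 67.7 in S31A injected. In both injected samples library 1 was below both controls and library 2 above both.

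A library at 0 beside one at 10 CPM or more in the same sample was seen for 2 members. Uqcrq, a small subunit of complex III, was at 0 and 16.3 CPM in S31A injected. The pseudogene Ndufa11b was at 0 and 15.0 CPM in S31A control and at 12.02 and 0 in S31A injected. In these cases the 2 libraries of a sample gave opposite answers on whether the feature was present.

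In ATP synthase, the F1 subunits alpha (Atp5a1) and beta (Atp5b) and the stalk subunit Atp5pb reached 10 CPM in all libraries. Atp5a1 was at 125 and 191 CPM in MO control, 142 and 97.3 in MO injected, 179 and 207 in S31A control, and 206 and 192 in S31A injected. Atp5b (chr10:128083273-128090391) was at 147 and 108, 218 and 131, 167 and 77.9, and 177 and 185 CPM in the same order. The delta subunit Atp5d and the peripheral stalk subunit Atp5o, which sit in the same enzyme, had 76 and 5 counts over all libraries. The c subunit, which forms the rotating ring, is encoded by 3 genes with the same mature protein: Atp5g3 was at 3.62 CPM per kb, Atp5g1 at 0.577 and Atp5g2 at 0.0255. Their ranges over libraries were 3.55 to 18.9 CPM for Atp5g3, 0.426 to 4.13 for Atp5g1 and 0 to 2.73 for Atp5g2. A copy of Atp5g1 with 99.8% identity, Gm10039, was at 2.07 to 69.4 CPM.

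The longest annotated exon was shorter in members than in all protein-coding features at the median. This was set beside the levels because the submitters' notes name Bowtie2, an aligner that does not split reads across introns. Overlapping or adjoining exons annotated for a feature were merged first. The longest merged exon can therefore exceed any exon of a single mRNA. Cox5b, with 4 coding exons, had 2 merged exons. The median longest exon was 708 bases in the 94 protein-coding members and 1701 in all 21789 protein-coding features. Of members whose longest exon had up to 300 bases, 22.2% (2 of 9) reached 10 CPM in a library, as did 28.6% (8 of 28) above 300 and up to 600, 45.5% (15 of 33) above 600 and up to 1200, and 41.7% (10 of 24) above 1200. The corresponding shares of all protein-coding features were 6.63%, 20.6%, 31.8% and 48.7%. Across members, Spearman's rho between longest exon and median CPM was 0.16 (n = 94 genes), and 0.375 when each member was summed with its copies. These genes share libraries and are not independent, and the role of exon length in the levels was not tested.

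**Figure D3:**
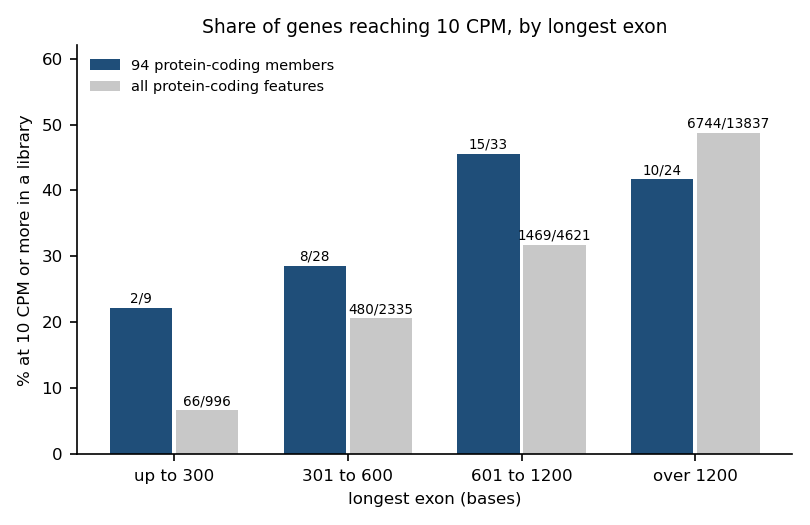
Share of genes that reached 10 CPM in a library, in 4 bins of the longest merged exon. Dark bars are the 94 protein-coding members and light bars all protein-coding features. Labels give the genes reaching 10 CPM over the genes in the bin. The share was higher in members than in all features in the first 3 bins and lower in the last.

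Promoters were searched for letters bound by factors known for respiratory genes. RefSeq promoters (GRCm38.p6, 250 bases before to 50 after the gene start, both strands) were found for 76 members of 27025 genes. The 10 letters of NRF1, printed in capitals below, were in 9.2% of members (7) and 1.07% of all genes. A YY1 motif was in 7.9% (6) and 1.0%, and the ERR letters TCAAGGTCA in 2.6% (2) and 0.47%. The GABPA letters CCGGAAGT were in 6.6% (5) and 4.31%, and the SP1 letters GGGGCGGGG in 15.8% (12) and 12.91%. The 7 NRF1 matches are shown with 10 bases on each side, on the strand of the gene and with the match in capitals, because they are the letters whose share in members was farthest from that in all genes.
Ndufaf4, chr4:24897960-24897989: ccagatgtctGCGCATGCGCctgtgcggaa
Cox6a1, chr5:115349101-115349130: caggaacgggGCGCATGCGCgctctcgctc
Ndufa11, chr17:56717692-56717721: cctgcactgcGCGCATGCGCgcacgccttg
Atp5k, chr5:108434430-108434459: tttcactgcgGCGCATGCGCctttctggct
Atp5g2, chr15:102671070-102671099: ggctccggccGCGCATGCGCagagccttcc
Ndufaf5, chr2:140170652-140170681: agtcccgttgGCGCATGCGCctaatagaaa
Uqcrc1, chr9:108936668-108936697: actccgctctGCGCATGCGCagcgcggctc

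These 7 genes did not share a level. Ndufaf4 was at 46.7 and Cox6a1 at 13.0 CPM per kb, while Atp5k was at 0.176, Ndufa11 at 0.0753, Atp5g2 at 0.0255, and Ndufaf5 and Uqcrc1 at a median of 0. A match is a description of these letters and not evidence of binding.

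The comparisons between groups follow. Counts were summed per sample, a feature counted as measured when either sample compared reached 10 CPM, and the log2 ratio of CPM was taken with a prior count of 2. With 1 sample per group these ratios have no test. Libraries of a single sample already differed: 13% of measured members in MO control, 33.3% in MO injected, 36.7% in S31A control and 41.4% in S31A injected were at least 2-fold apart between libraries 1 and 2, against 24.8%, 39.8%, 40.4% and 41% of all measured features. Bracketed intervals below are exact 95% intervals for counting error only, and the range over the 4 pairings of single libraries is given where it matters. In bulk samples, fewer cells of a type and less RNA per cell cannot be told apart.

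The first comparison asks how MO injection relates to the level of these genes. Of 23 members measured, 3 were at least 2-fold higher in MO injected than in MO control (Cox6a1, Cox6b2 and Ndufb6) and 2 at least 2-fold lower (Sdhd and Ndufa8). Over all 8110 measured features the shares were 11.3% higher and 12.5% lower. The median log2 ratio was -0.06 over members and 0.03 over all features. When libraries are set apart without regard to size, 4 members had both injected libraries above both controls and 4 had both below, against 19.2% and 21.3% of all features. Both criteria held for 2 members higher and 2 lower, against 7.29% and 10.4%.

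Sdhd (chr9:50596357-50603812), a membrane anchor of complex II, was at 36.1 and 53.8 CPM in MO control and 13.0 and 14.0 in MO injected. The injected libraries were both below the controls, and the log2 ratio was -1.62 (-1.83 to -1.43), 3.10-fold lower. In the S31A experiment Sdhd was at 25.4 and 18.1 CPM in the control and 2.22 and 39.9 in the injected libraries, which enclosed the controls. Its partners in complex II were within 2-fold with MO injection, with log2 ratios of -0.05 for Sdha and -0.17 for Sdhc.

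Ndufa8 (chr2:36036326-36049406), an accessory subunit of complex I, was at 10.3 and 19.7 CPM in MO control and 4.98 and 5.79 in MO injected, a log2 ratio of -1.34 (-1.69 to -1.02). Ndufb6 (chr4:40270591-40279421), an accessory subunit of the membrane arm, was at 8.80 and 6.25 CPM in MO control and 18.2 and 12.4 in MO injected, a log2 ratio of 1.07 (0.77 to 1.39). The ratio of Ndufb6 was 0.64 without MO injected library 1. Cox6b2 (chr7:4751792-4753094) was at 7.61 and 2.63 against 12.7 and 9.93 CPM, a log2 ratio of 1.08 (0.74 to 1.46) that was 0.65 without MO control library 2 and 2.13 without MO control library 1.

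Cox6a1 (chr5:115345642-115348981) was 1.23 higher on the log2 scale, but its libraries overlapped, at 4.24 and 18.4 CPM in MO control and 34.01 and 6.003 in MO injected. Its ratio was 0.33 without MO control library 1 and 2.43 without MO control library 2. MO injected library 2 alone, at 6.003 CPM, was below the 9.58 CPM of the summed MO control. The 4 library pairings gave log2 ratios of -1.585 to 2.947, so the direction depended on the library. With scaling by total counts alone, 1 member (Cox6a1) was at least 2-fold higher and 2 lower, and of all features at least 2-fold apart 36.2% were higher, against 47.3% with the main scaling. Members with small ratios and little spread included Atp5pb at 0.28, with libraries at 13.8 and 12.8 CPM in MO control and 16.1 and 15.2 in MO injected, and Ndufaf2 at 0.67, at 37.0 and 34.9 against 55.2 and 55.6 CPM.

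**Figure D4:**
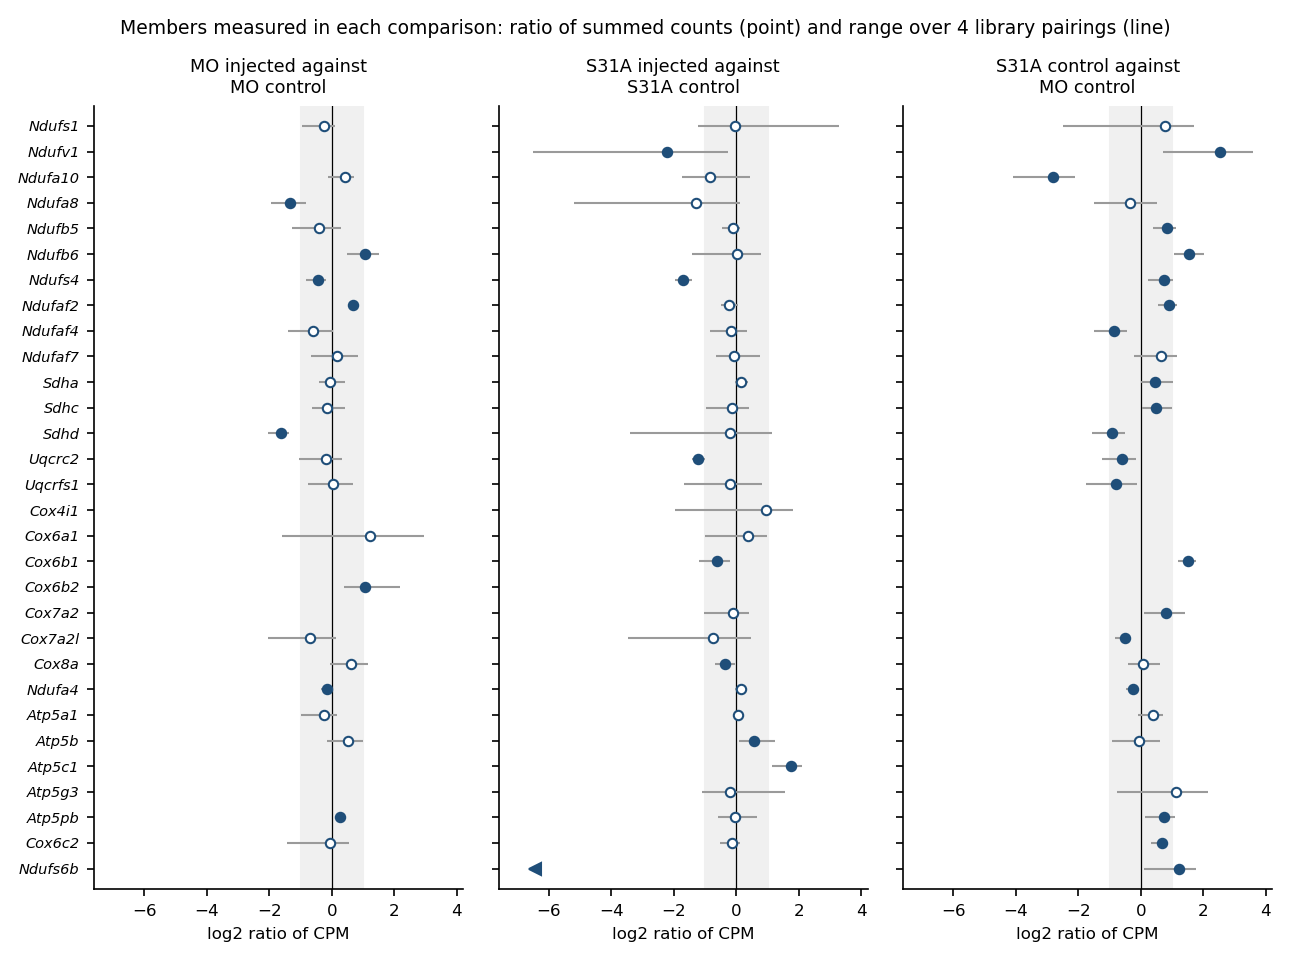
Log2 ratio of CPM of summed counts for each measured member in the 3 comparisons, with the range over the 4 pairings of single libraries as lines; filled points have libraries that do not overlap, open points have libraries that do, the grey band is within 2-fold, and the triangle for Ndufs6b marks the bound of a gene at 0 in S31A injected. Most members lie within the band in all 3 panels, and Ndufa10 and Ndufs6b lie farthest from it.

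The second comparison asks the same of S31A injection. Of 29 members measured, 1 was at least 2-fold higher in S31A injected than in S31A control (Atp5c1) and 5 at least 2-fold lower (Ndufs6b, Ndufv1, Ndufs4, Ndufa8 and Uqcrc2), against 14.1% and 16.1% of 8191 features. The median log2 ratio was -0.14 over members, the same with Ndufs6b at its bound, and 0.02 over all features. Without S31A injected library 1 the median was -0.51, and without library 2 it was 0.06. With both libraries on a side, 2 members were higher and 6 lower, against 19.8% and 19.8% of all features, and 1 and 4 were also at least 2-fold apart, against 9.19% and 11.4%.

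Ndufs4 (chr13:114287795-114388258), an accessory subunit of complex I whose loss in mice gives a fatal brain disease, was at 25.04 and 28.84 CPM in S31A control and 7.33 and 9.31 in S31A injected. The log2 ratio was -1.70 (-1.97 to -1.47), 3.28-fold lower, and the 4 library pairings gave -1.95 to -1.41. In MO control it was at 13.9 and 21.4 CPM and in MO injected at 11.9 and 12.2, between the 2 groups of the S31A experiment.

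Uqcrc2 (chr7:120635176-120659524) was at 22.3 and 29.3 CPM in S31A control and 11.1 and 10.8 in S31A injected, a log2 ratio of -1.23 (-1.46 to -1.01). Without S31A control library 2 it was -0.97. In the MO experiment it was at 32.9 and 53.6 CPM in the control and 41.3 and 25.8 in the injected libraries, which overlapped.

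Ndufv1 (chr19:4007384-4012806), the core subunit that binds FMN and takes electrons from NADH, was at 5.23 and 17.9 CPM in S31A control and 4.35 and 0 in S31A injected. The log2 ratio was -2.23 (-2.74 to -1.83), but -1.44 without S31A injected library 2 and -6.69 without library 1. In the MO libraries it was at 0 to 3.12 CPM. Ndufa8 was at 14.8 and 6.86 against 7.503 and 0.2141 CPM, and its libraries overlapped. Its log2 ratio of -1.299 was -0.53 without S31A injected library 2 and -5.07 without library 1.

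Ndufs6b (chr7:81161397-81161744), a processed pseudogene 90.3% identical to the coding sequence of Ndufs6 and lying in Slc28a1, had 277 counts in S31A control, at 6.54 and 18.2 CPM, and 0 in both S31A injected libraries. With 3 counts taken as the floor of the summed sample, it was at least 87.8-fold lower, and the exact interval for counting error had its upper end at a log2 ratio of -6.15. In MO control it was at 5.22 and 6.08 CPM and in MO injected at 2.53 and 11.1. The host Slc28a1 was at 0 in both S31A control libraries and at 0 and 4.603 CPM in S31A injected. Ndufs6 itself had 47 counts over the 8 libraries.

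Atp5c1 (chr2:10056016-10080510), the gamma subunit that turns inside the F1 head, was at 3.83 and 4.13 CPM in S31A control and 17.1 and 9.42 in S31A injected, a log2 ratio of 1.76 (1.43 to 2.14). Its copies held 2171 counts against 565 for the gene. Summed with them, Atp5c1 was at 35.96 and 25.41 CPM in S31A control and 84.9 and 26.9 in S31A injected, and the log2 ratio was 0.96 with libraries that overlapped. Atp5b, the beta subunit of the same head, had a log2 ratio of 0.58 and Atp5a1 one of 0.05.

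The third comparison sets S31A control beside MO control. Any difference in how the 2 experiments were prepared cannot be told apart from it. These are the same samples that the injections above are compared with, so its ratios are not independent of the others. Of 26 members measured, 5 were at least 2-fold higher in S31A control (Ndufv1, Ndufb6, Cox6b1, Ndufs6b and Atp5g3) and 1 was lower (Ndufa10), against 13.6% and 16.2% of 8266 features. The median log2 ratio was 0.56 over members and 0.05 over all features. Above 0 were 17 of the 26 members and 4333 of the 8266 features. Both S31A libraries were above both MO libraries in 12 members and below in 7, against 21.2% and 25.2% of all features. Of these, 4 were also at least 2-fold higher and 1 lower, against 9.67% and 14.5%.

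Ndufa10 (chr1:92439010-92473860), an accessory subunit of complex I related to nucleoside kinases, was at 84.1 and 122 CPM in MO control and 139 and 112 in MO injected. In S31A control it was at 7.01 and 19.5 CPM and in S31A injected at 5.71 and 9.63. All 4 MO libraries were above all 4 S31A libraries, with 84.1 CPM as the lowest MO value and 19.5 CPM as the highest S31A value. Between the controls the log2 ratio was -2.82 (-3.01 to -2.65), 7.11-fold lower, and the 4 library pairings gave -4.09 to -2.10.

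Among the 38 members that reached 10 CPM, 2 had all MO libraries above all S31A libraries (Ndufa10 and Uqcrfs1), against 5.98% of 10516 features, and 1 had them below (Sdha), against 3.54%. Uqcrfs1 (chr13:30540308-30545362) was at 16.7 and 27.3 CPM in MO control, 16.01 and 26.96 in MO injected, 15.51 and 8.001 in S31A control, and 14.3 and 4.71 in S31A injected. The margin was small, 16.01 over 15.51 CPM. Sdha (chr13:74322254-74350280) was at 191 and 117, 156 and 142, 191 and 237, and 229 and 248 CPM in the same order, with a margin below 1 CPM between MO control library 1 and S31A control library 1. This grouping was chosen after the values were seen.

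Ndufb6 was at 25.8 and 18.6 CPM in S31A control, a log2 ratio of 1.55 (1.27 to 1.86) over MO control, and Cox6b1 (chr7:30616861-30626151) was at 12.2 and 9.94 against 4.24 and 3.45 CPM, a log2 ratio of 1.52 (1.14 to 1.98). Ndufv1 was 2.53 higher (2.05 to 3.17) and Ndufs6b 1.21 higher (0.87 to 1.60). Atp5g3, at 3.55 and 18.9 against 6.19 and 4.11 CPM, was 1.13 higher with overlapping libraries.

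The ratios of measured protein-coding features were also set beside exon length, as the longest merged exon. Between controls, the median log2 ratio over all protein-coding features measured was 0.27 where the longest exon had up to 300 bases, 0.31 above that and up to 600, 0.16 up to 1200 and 0.009 above 1200, in 47, 359, 1124 and 5521 features. The share at least 2-fold higher was 17%, 18.1%, 16.5% and 12.3% in the same order, and the share lower 19.1%, 9.75%, 14.5% and 16.5%. With S31A injection the medians were -0.11, -0.16, -0.06 and 0.08 from short to long exons, with 2.44%, 9.86%, 14.4% and 15.0% at least 2-fold higher and 19.5%, 18.4%, 18.3% and 14.9% lower. Features with longest exons of up to 600 bases thus lay below those above 1200 bases there. With MO injection the medians were -0.39 in the 44 features of up to 300 bases, then 0.10, 0.10 and 0.03. The members' medians were 0.56 between controls, -0.14 with S31A injection and -0.06 with MO injection. The part of exon length in them was not tested. Mitochondrially encoded subunits differed between the controls. The 13 genes summed to 51580 and 40560 CPM in MO control and 29930 and 43440 CPM in MO injected. Their sum was 86830 and 94890 CPM in S31A control and 69970 and 94080 CPM in S31A injected. The S31A libraries were all above the MO libraries in this sum. Within it mt-Co2, mt-Co3, mt-Atp6 and mt-Atp8 were at 11.3 CPM or less in every library, beside 5229 to 15200 CPM for mt-Co1.

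**Figure D5:**
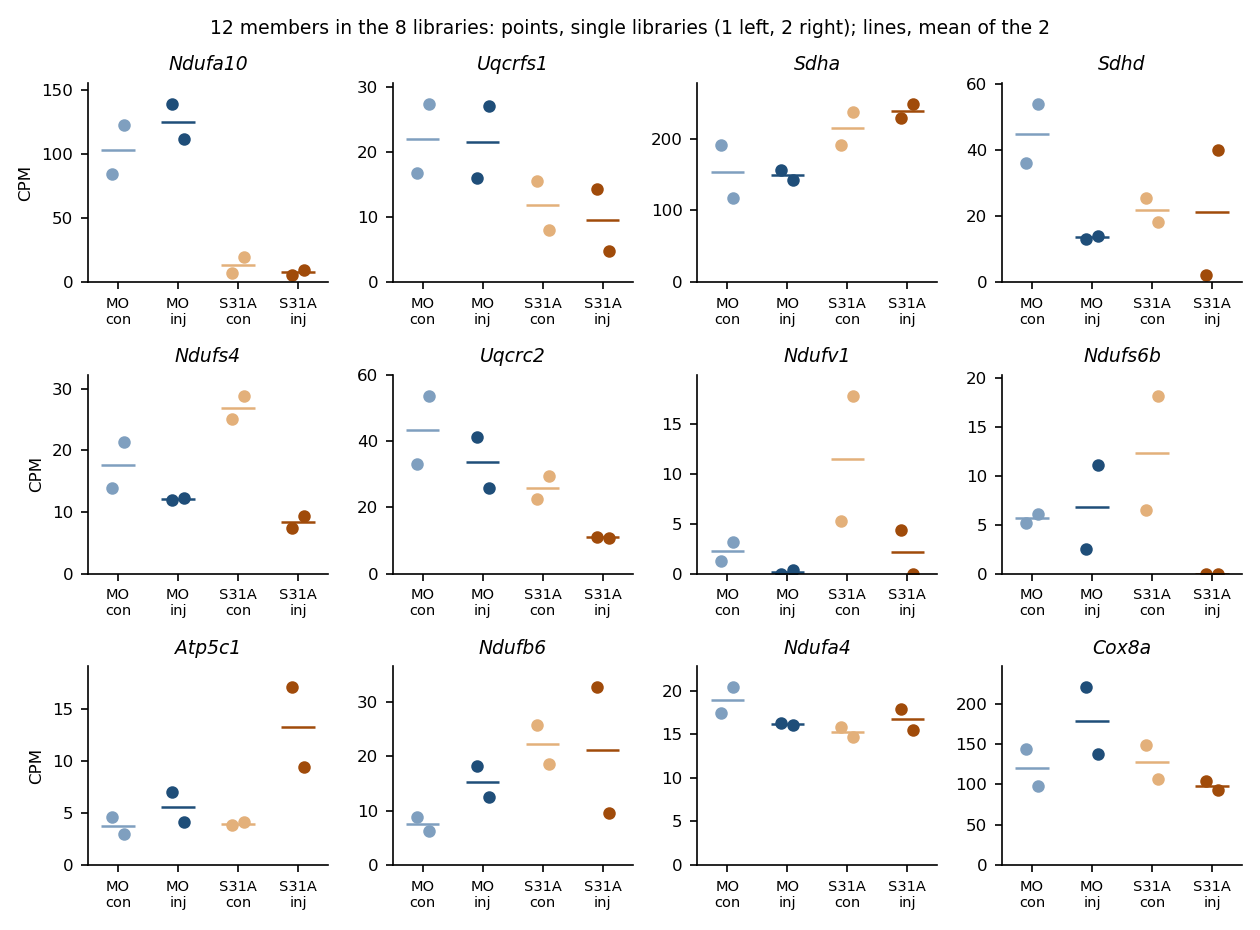
CPM of 12 members in the 8 libraries, with single libraries as points (library 1 left, library 2 right) and the mean of the 2 as a line, each axis starting at 0. Ndufa10 separates the MO from the S31A libraries, Ndufs4 and Uqcrc2 are low in both S31A injected libraries, Ndufs6b is at 0 there, and Ndufa4 stays between 14.7 and 20.4 CPM.

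Summing each member with its intronless copies, an alternative chosen after seeing the data, gave 94 units, of which 53 reached 10 CPM in a library and 20 in all 8. With MO injection 3 of 37 measured units were 2-fold or more higher and 2 lower, against 11.2% and 12.5% of all features. With S31A injection 2 of 42 were higher and 7 lower, against 14.1% and 16.2%, with a median of -0.20. Atp5g1 with its copies was at 45.7 and 73.5 CPM in S31A control and 15.9 and 16.6 in S31A injected, a log2 ratio of -1.88. Uqcrh, a hinge protein of complex III, was at 30.1 and 25.9 against 12.6 and 12.9 CPM, a log2 ratio of -1.13.

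Between the controls, 12 of 40 units were at least 2-fold higher in S31A control and 2 lower, against 13.6% and 16.2%, with a median of 0.59. Units that did not reach 10 CPM as the gene alone included Cox5b at 1.08, Ndufb2 at 1.01, Atp5l at 1.296, Uqcrh at 1.279 and Atp5g1 at 1.496, each with both S31A libraries above both MO libraries. In these the counts were mostly those of the copy, as for Cox5b-ps above.

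When the 8 libraries were tested with edgeR (quasi-likelihood), no member passed at an adjusted p under 0.05 in any comparison. Of 32 members tested, 0, 1 and 1 had an unadjusted p under 0.05 with MO injection, S31A injection and between controls, and the smallest adjusted p (edgeR, Benjamini-Hochberg) was 0.9999, 0.438 for Ndufs6b and 0.275 for Ndufa10. Over all 8892 features edgeR called 0.0337%, 0.045% and 0%. DESeq2 called 0, 1 and 1 of the 32 members, against 0.664%, 4.13% and 3.01% of all features: Ndufs6b with S31A injection (adjusted p = 0.00139) and Ndufa10 between controls (adjusted p = 0.00141). Such p-values rest on the difference between 2 libraries of the same sample and may reflect preparation alone.

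Other genes of the pathway were taken from lists beside the members. Their counts stand beside the same shares of all features as above: 11.3% higher and 12.5% lower with MO injection, 14.1% and 16.1% with S31A injection, and 13.6% and 16.2% between controls. Of 45 assembly factors outside the symbol rule, 16, 17 and 17 were measured in the 3 comparisons. Those at least 2-fold higher and lower numbered 2 and 3 for MO injection, 3 and 5 for S31A injection, and 4 and 1 between controls. Coa5, needed to assemble complex IV, was at 47.2 and 35.4 CPM in MO control and 8.73 and 9.93 in MO injected, a log2 ratio of -2.14. In the S31A experiment it was at 13.6 and 16.4 CPM in the control and 59.6 and 64.7 in the injected libraries, a log2 ratio of 2.03, in the opposite direction. The difference between the experiments was not tested.

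Atpaf1, a chaperone for the F1 beta subunit, also had opposite signs. It was at 3.48 and 5.43 against 11.8 and 23.6 CPM with MO injection, a log2 ratio of 1.997, and at 34.0 and 35.5 against 0.256 and 10.8 CPM with S31A injection, a log2 ratio of -2.79. Lrpprc, which stabilises mitochondrial mRNAs, had a log2 ratio of -1.31 with MO injection. Sdhaf2, which attaches FAD to Sdha, was at 27.7 and 2.81 CPM in S31A control and at 0.512 and 0.321 in S31A injected, a log2 ratio of -4.83.

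Of 16 genes for cytochrome c and coenzyme Q, 2 of 9 measured were at least 2-fold lower with MO injection and 0 higher (Hccs at -1.89 and Pdss2 at -1.34), 1 and 1 with S31A injection among 7 (Coq10a at 1.25 and Coq3 at -1.61), and 2 and 2 between controls among 8. Of 18 regulators of respiratory genes and mitochondrial DNA, 8 were measured in each comparison. With MO injection 1 was higher (Polg, the mitochondrial DNA polymerase, at 1.41) and 0 lower, and with S31A injection 2 and 1. Between controls 1 was higher (Pprc1 at 2.21) and 3 lower, among them Ppargc1b at -3.17 and Tfb2m at -1.94. Pprc1 and Ppargc1b are coactivators of one family and had opposite signs.

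Of 26 genes of the TCA cycle and pyruvate dehydrogenase, 0 of 16 measured were 2-fold apart with MO injection, and 1 was higher and 1 lower of 17 in each of the other 2 comparisons. Pdk3, a kinase that switches pyruvate dehydrogenase off, was at 29.0 and 13.2 CPM in S31A control and 75.8 and 56.5 in S31A injected, a log2 ratio of 1.69. Pdha1, the catalytic subunit of that enzyme, was at 23.9 and 27.6 CPM in MO control and 4.67 and 7.47 in S31A control, a log2 ratio of -1.98. Of 16 glycolytic genes, 0 were higher and 2 lower with MO injection among 6 measured: Gpi1, the isomerase of the second step, at -2.90 and Pfkp, a phosphofructokinase, at -1.14. With S31A injection 1 of 5 was higher and 0 lower, and between controls 0 of 6 were higher and 1 lower.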

How the data were processed

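The authors' deposited values were raw counts per feature, whole numbers with no normalization, beside the other deposited column used, the feature length in bases, per the file headers. The submitters' processing notes name mm10 as the build and FastQC, Bowtie2, featureCounts and DESeq2 as tools. Their versions, the annotation, the strand setting and how reads with more than 1 match were handled are not given in the sources used here. Per the labels' protocols, PCR amplified the cDNA before library preparation, so counts are not single molecules, and intervals and floors cover counting error only. Of the members, 95 had the same coordinates in GENCODE M21, and overlapping or antisense features are uncertain without a strand setting.

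Counts of the 2 libraries were summed per sample and scaled with TMM factors of edgeR 4.0.16 (R 4.3.3) for ratios, with a prior count of 2. Levels used TMM factors over the 8 libraries. Features that reached 10 CPM in either sample compared were measured, and at least 2-fold apart was the call. Over the 8 libraries, edgeR's quasi-likelihood test and DESeq2 1.42.0 used features that reached 10 CPM in 2 libraries, with Benjamini-Hochberg adjustment at 0.05 over all features, and the edgeR step was tested on simulated counts. Intervals are Clopper-Pearson. Intronless copies were found with BLAST+ 2.17.0 against GENCODE M21 transcripts. The alternatives were DESeq2 size factors, total counts only, filters of 1 and 50 CPM, a prior count of 0.5, leaving out each library, a replicate block, and, chosen after seeing the data, summing members with their copies, bins of exon length and MO against S31A libraries. No per-sample column was left out (0).

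The members, lists and tests were chosen with earlier results of these data known. Named members were the 8 highest per length, those at least 2-fold apart with libraries that do not overlap (up to 12 per direction), those with a library at 0 beside one at 10 CPM or more, the alternative complex IV forms and the c subunit genes, and up to 3 genes per other list and comparison. Genes given as examples of copies, of low levels, of small spread, of overlapping ratios and of promoter letters fall outside this rule and were picked with their values in view.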

Additional observations from a re-analysis of the deposited data

How the results depend on the processing

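Counts of members at least 2-fold apart moved mainly with the filter on low values. At 1 CPM, 7 members were higher and 12 lower with MO injection (median log2 ratio 0.0245), 8 and 13 with S31A injection, and 15 and 12 between controls (median 0.38). These were counts of 67, 67 and 69 members, beside 16.7% higher and 24.3% lower of all features with MO injection, 22.3% and 23.7% with S31A injection, and 17.2% and 29.1% between controls at that filter. At 50 CPM, 0 and 0 were left with MO injection (median 0.18), 0 and 0 with S31A injection, and 0 higher between controls (median 0.24), among 8, 9 and 10 members, beside 7.03% to 10% of all features in each direction. With total counts only, 1 member was higher with MO injection (median -0.17) and 2 were lower between controls (median 0.41), and the median of all features moved from 0.03 to -0.09 with MO injection and from 0.02 to -0.09 with S31A injection. With copies summed, 2 were higher with S31A injection, and 12 higher and 2 lower between controls. DESeq2 called 1 member with S31A injection and 1 between controls where edgeR called 0. DESeq2 size factors and a prior count of 0.5 changed none of the counts of members, and the widest move of a median was from -0.058 to -0.082, with MO injection under DESeq2 size factors.

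Leaving out each library of the samples compared in turn gave 1 to 5 members higher and 1 to 4 lower with MO injection. The medians were -0.29 to 0.13, beside 7.99% to 16.8% higher and 12% to 22.7% lower of all features. With S31A injection leaving out a library gave 2 to 3 higher and 2 to 9 lower. There the medians were -0.51 to 0.06, beside 15.3% to 20.4% and 18.6% to 21.1%. Between controls it gave 5 to 8 higher and 1 to 5 lower, with medians from 0.26 to 0.64, beside 15.9% to 17% and 16.7% to 21.9%. edgeR called 0 members in each of these fits. A single library left in a group was assumed to vary like the others. With library number as a replicate block, edgeR called 0 members in all 3 comparisons. The deviations of same-numbered libraries correlated at -0.047 to 0.095 over 8893 features, so the numbers are not read as pairs.

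Limits: most members lie under 10 CPM, where counting error and the difference between libraries of a sample are large, and 1 sample per group leaves injection and any other difference between samples untold apart. Counts of members with near-identical copies depend on an alignment setting that is not given in the sources used here. They also depend on the named aligner, Bowtie2, which does not split reads across introns.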
